A study of Mus musculus with 12 samples.

Results

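The constitutive proteasome genes were taken as every protein-coding gene of the GENCODE vM21 mouse annotation whose symbol names a proteasome subunit, activator, inhibitor or assembly chaperone of the Psma, Psmb, Psmc, Psmd, Psme, Psmf or Psmg series, leaving out the interferon-induced genes Psmb8, Psmb9, Psmb10, Psme1 and Psme2. The rule used names only, and it gave 43 genes of the 55401 identifiers in the expression table. They were measured by RNA sequencing in 12 libraries of wild-type mouse cells, sorted by flow as live, CD45+ and CD11c+ from B16-OVA tumours, a melanoma line that carries ovalbumin. CD45 marks blood-derived cells and CD11c marks dendritic cells and several other myeloid and lymphoid cells. Tumours had grown for 10 days when treatment began and were collected on day 17. The groups were untreated, fusion protein (a first dose of 20 mcg at day 10, then 10 mcg at day 14), radiation of 20 Gy on day 10, and both treatments combined, with 3 libraries in each. The labels do not give the parts of the fusion protein, the mouse strain, sex or age, or whether a library came from 1 animal or several, so the p-values measure the spread between these libraries.

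The proteasome is the barrel-shaped protease that degrades proteins tagged with ubiquitin. Its core particle is built from rings of alpha subunits, which form the gate, and rings of beta subunits, of which Psmb5, Psmb6 and Psmb7 carry the proteolytic sites. The regulatory particle caps the core: its base holds the Psmc ATPases that unfold and thread the substrate, and its lid holds the deubiquitinase Psmd14. In antigen-presenting cells the peptides made by the proteasome are loaded on MHC class I, and interferon replaces the constitutive proteolytic subunits with Psmb8, Psmb9 and Psmb10, which gives the immunoproteasome.

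The sequences before the start sites of 4 members are given as examples, and no expression result rests on them. Psmb5 and Psmb6 are proteolytic subunits, and Psma7 and Psmd14 had the smallest p-values of the members when the combined treatment was compared with untreated cells. The sequences come from RefSeq on GRCm38.p6, are written 5′ to 3′ on the gene's strand, and end at or before the annotated gene, which left out the last 27 of the 250 bases for Psmb5. Psmb5 lies on the minus strand at chr14:54618023-54618245, Psmb6 on the plus strand at chr11:70525107-70525356, Psma7 on the minus strand at chr2:180042465-180042714 and Psmd14 on the plus strand at chr2:61711444-61711693. Capitals mark matches to TGACNNNGC, the core of the antioxidant response element that transcription factors of the NRF family bind, and to CCAAT, the box bound by NF-Y, each on either strand.
Psmb5 upstream bases: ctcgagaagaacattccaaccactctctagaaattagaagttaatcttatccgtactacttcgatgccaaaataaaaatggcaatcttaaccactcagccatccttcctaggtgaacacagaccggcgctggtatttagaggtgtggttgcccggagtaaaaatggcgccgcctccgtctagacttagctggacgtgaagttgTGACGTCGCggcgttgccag
Psmb6 upstream bases: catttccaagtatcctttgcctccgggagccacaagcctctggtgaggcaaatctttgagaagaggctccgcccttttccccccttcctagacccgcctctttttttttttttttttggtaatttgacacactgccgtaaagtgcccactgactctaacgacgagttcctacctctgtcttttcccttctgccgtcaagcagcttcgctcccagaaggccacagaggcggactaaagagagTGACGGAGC
Psma7 upstream bases: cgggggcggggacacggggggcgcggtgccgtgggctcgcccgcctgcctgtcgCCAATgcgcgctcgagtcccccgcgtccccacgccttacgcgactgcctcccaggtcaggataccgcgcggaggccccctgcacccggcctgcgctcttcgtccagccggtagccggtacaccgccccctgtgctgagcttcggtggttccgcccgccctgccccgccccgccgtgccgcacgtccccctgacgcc
Psmd14 upstream bases: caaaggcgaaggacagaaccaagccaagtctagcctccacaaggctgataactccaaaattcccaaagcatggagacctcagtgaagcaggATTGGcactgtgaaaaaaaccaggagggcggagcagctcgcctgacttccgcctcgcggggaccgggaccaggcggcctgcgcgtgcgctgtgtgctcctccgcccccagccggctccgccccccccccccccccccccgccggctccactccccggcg
The Psmb5 and Psmb6 windows each held 1 match to TGACNNNGC, 47 and 9 bases before the RefSeq start site counted to the first base of the match (20 bases from the end of the printed Psmb5 stretch), and the Psma7 and Psmd14 windows each held a CCAAT box. Of the 43 members, 35 were matched by symbol to 37 RefSeq windows of 250 bases before the start. TGACNNNGC occurred in 5 of those 37 windows (13.5%), those of Psmb5, Psmb6, Psmc6, Psmd9 and Psmd12, against 10.2% of 32851 mouse windows of that length. CCAAT occurred in 13 of 37 (35.1%) against 33.8%. Psma8, Psmb1, Psmb2, Psmb7, Psmc3, Psmd3, Psmd7 and Psmg2 had no matched window.

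Libraries held 14462032 to 23985496 reads in genes, and the members took 0.216% to 0.308% of them. The gate genes Ptprc (CD45) and Itgax (CD11c) were read in every library, at normalized counts of 30925 to 53839 and 2226 to 9497. Libraries also differed in receptor gene reads, melanoma genes, mitochondrial reads and cell type markers. Genes of the olfactory, vomeronasal and trace amine receptor families, which these cells are not known to use, had a read for 4.79% to 25.48% of 1754 genes in untreated and fusion protein libraries, but for 78.96% and 59.01% in 20 Gy libraries 1 and 2 and 57.7% and 39.68% in combined libraries 1 and 3. The summed level of 6 melanoma genes was 1616, 4030, 14555 and 879 in the libraries numbered 3 (untreated, fusion protein, 20 Gy, combined) and 8.2 to 217.1 in the other 8. Mitochondrial genes took 18.57% of reads in 20 Gy library 3 and 6.95% to 14.34% elsewhere. The mean log2 level of 6 dendritic cell genes was 9.77 to 11.03 in the 6 libraries without the fusion protein and 7.32 to 9.41 in the 6 with it. With the fusion protein alone 3 of the 6 genes were lower without overlap, against 4.7% of all genes. The mean log2 level of 4 natural killer cell genes was 10.48 to 11.75 against 12.54 to 13.58. With the fusion protein alone 2 of these 4 were higher without overlap, against 5.94% of all genes. They were Gzma and Gzmb, granzymes that T cells also make. The natural killer receptors Ncr1 (3728, 3889 and 3022 untreated, 8062, 3924 and 3196 treated) and Klrb1c (1336, 1368 and 963, then 2955, 1403 and 1287) did overlap. Against 20 Gy all 4 were higher in every combined library, against 8.36% of all genes. In such bulk samples a change in the share of a cell type and a change in RNA per cell cannot be told apart, and the part of these features in the member levels was not tested.

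Levels differed widely by role, read per kilobase of exon in untreated cells. The core and regulatory subunits other than Psma8 and Psmb11 lay between 177 (Psmc2) and 944 (Psma4) normalized counts per kilobase. Most chaperones were lower, with 23.9 for Psmg3, 40.5 for Psmd9 and 57.9 for Psmd5, while Psmg4 stood at 475. These values depend on the length of all annotated exons together, 7248 bases for Psmd9 and 555 for Psmg4. The mean untreated counts of these genes were 293 and 263. The caps Psme3, the nuclear activator PA28 gamma, and Psme4, the activator PA200, gave 558 and 222, and the inhibitor Psmf1 gave 73.2. Psma8 and Psmb11, named for other tissues, were almost absent. Psma8, the alpha subunit of testis, had normalized counts of 13.5, 8.74 and 5.17 in untreated libraries, 7.4, 3.04 and 4.39 with the fusion protein, 29.9, 22.5 and 5.24 after 20 Gy, and 23.4, 5.51 and 8.63 after both. Its 3 highest libraries, 20 Gy 1 and 2 and combined 1, were also the 3 with most receptor genes read. Psmb11, the beta subunit of the thymus, was at 1.5, 0 and 0 in untreated libraries, 0, 0 and 6.59 with the fusion protein, 8.8, 7.5 and 0 after 20 Gy, and 3.6, 0 and 1.73 after both. It was the 1 member that did not reach a normalized count of 10 in 3 libraries, so 42 members were tested.

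**Figure D1:**
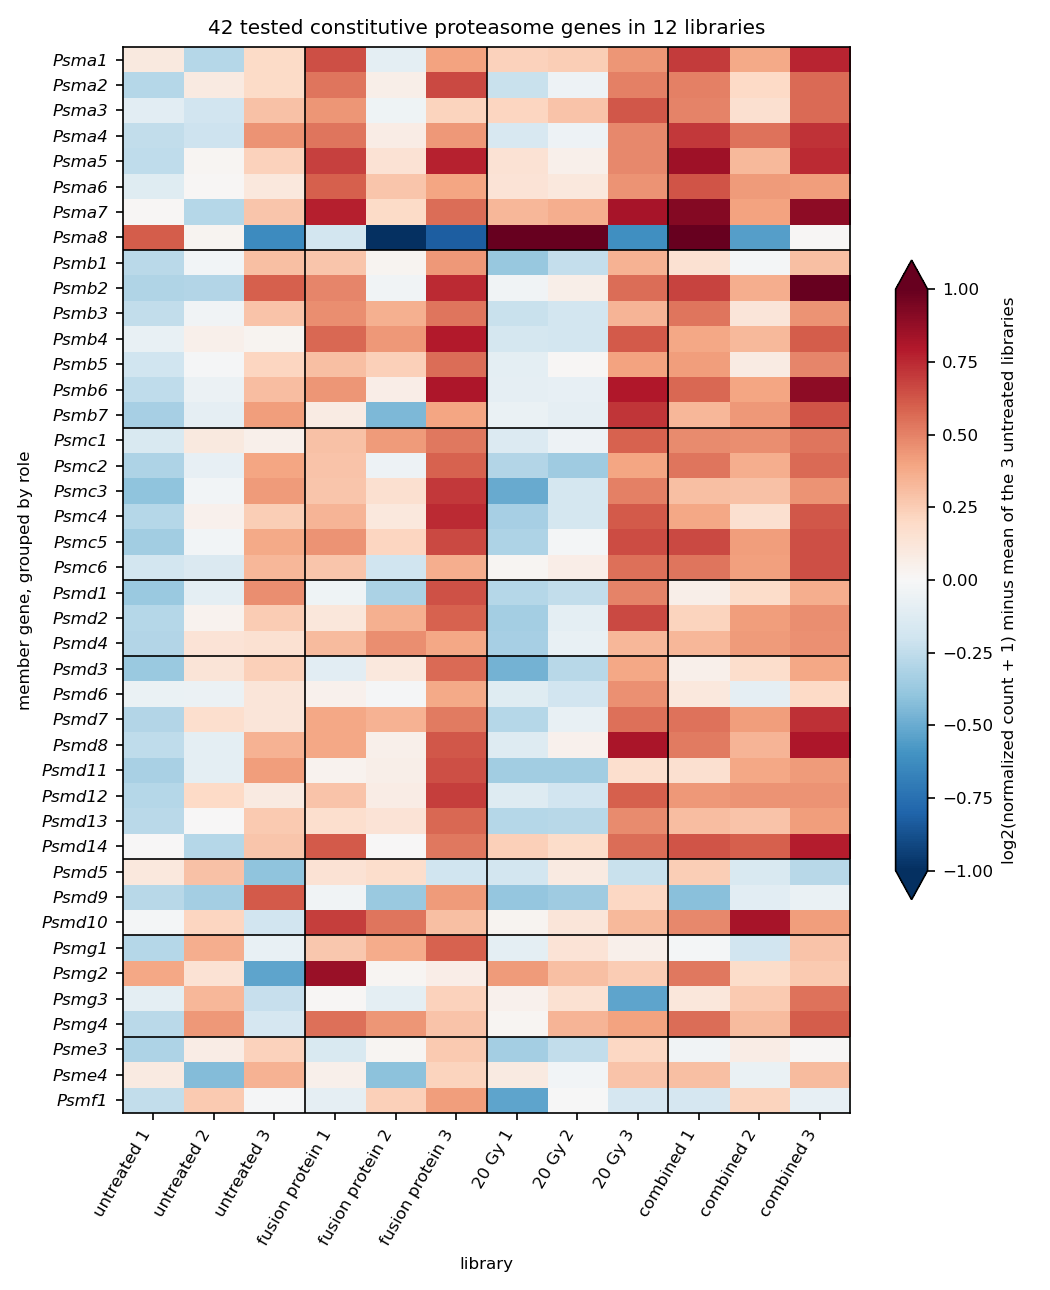
Each row is 1 of the 42 tested members, grouped by role, and each column 1 library. Colour is log2(normalized count + 1) minus the mean of the 3 untreated libraries, with the scale ending at 1 and -1. Most core and regulatory subunits are above the untreated mean in the fusion protein and combined columns and in the third 20 Gy column, and Psma8 follows another pattern.

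The fusion protein alone was compared with no treatment to ask what it did to the sorted cells without radiation. Of the 42 tested members 40 had a positive log2 fold change, with a median of 0.35 (0.22 without fusion protein library 3) and a range of -0.75 to 0.60, while 49.5% of all 18274 tested genes were positive and their median was -0.01. No single member passed the test. By limma with Benjamini-Hochberg adjustment over all tested genes 0 members were called, against 0.586% of all genes called higher and 0.159% lower. EdgeR and DESeq2 also called 0 members. Of all genes edgeR called 0.471% higher and 0.131% lower, and DESeq2 1.76% and 0.788%. An unadjusted p under 0.05 was reached by 5 of the 42 tested members, against 1536 of 18274 genes (8.41%). In 8 members every fusion protein library was above every untreated one (Psma6, Psmb3, Psmb4, Psmb5, Psmc1, Psmd4, Psmd7 and Psmd10), 19.0% of the tested members against 5.94% of all genes.

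The medians of the parts of the 26S particle were close to each other: 0.38 for 8 alpha subunits, 0.40 for 7 tested beta subunits, 0.39 for 6 base ATPases, 0.35 for the base scaffold and ubiquitin receptor genes Psmd1, Psmd2 and Psmd4, and 0.32 for 8 lid subunits. All 17 regulatory particle members and 14 of 15 tested core members were positive, the exception being Psma8. The 4 core assembly chaperones had a median of 0.36 and the 3 base assembly chaperones 0.04. Psme3, Psme4 and Psmf1, which bind the core but belong to neither particle, had a median of 0.04. None of these differences between roles was tested.

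Psmb4, a beta subunit without a proteolytic site, had the smallest p. Its normalized counts were 712, 776 and 763 in untreated libraries, 1114, 1015 and 1300 with the fusion protein, 663, 661 and 1149 after 20 Gy, and 982, 940 and 1140 after both. The fusion protein and untreated libraries did not overlap, while 20 Gy library 3 stood with the fusion protein libraries. Its log2 fold change for the fusion protein alone was 0.60 ± 0.22 (SE), with a limma adjusted p of 0.415. Psma6, an alpha subunit, was read at 815, 892 and 952 without treatment and at 1342, 1073 and 1166 with the fusion protein, 971, 954 and 1208 after 20 Gy and 1367, 1189 and 1182 after both. Here too the fusion protein libraries were all above the untreated ones, by 0.43 ± 0.16 (limma adjusted p = 0.449). Psmd10, known as gankyrin, is an assembly chaperone of the base. Its counts were 179, 211 and 159 in untreated libraries, 294, 264 and 224 with the fusion protein, 185, 198 and 228 after 20 Gy, and 254, 322 and 243 after both. The difference for the fusion protein alone was 0.51 ± 0.21 (limma adjusted p = 0.522). Psma5, with 566, 683 and 793 against 1086, 744 and 1151, overlapped by 1 library and gave 0.53 ± 0.23 (limma adjusted p = 0.544). On the lower side only Psma8 (-0.75 ± 0.75, limma adjusted p = 0.956) and Psme4 (-0.05 ± 0.23, adjusted p = 0.999) had a negative value.

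None of the 3 proteolytic subunits passed, and the differences between them were not tested. Psmb5, the chymotrypsin-like subunit, had normalized counts of 264, 300 and 352 in untreated libraries, 374, 357 and 446 with the fusion protein, 284, 306 and 402 after 20 Gy, and 405, 321 and 425 after both. All 3 fusion protein libraries were above the untreated ones, and the log2 fold change was 0.36 ± 0.21 (limma adjusted p = 0.753). Psmb6, the caspase-like subunit, was read at 713, 816 and 1049 without treatment, 1155, 887 and 1487 with the fusion protein, 796, 803 and 1478 after 20 Gy and 1262, 1115 and 1579 after both. Its untreated and fusion protein libraries overlapped, at 0.44 ± 0.28 (limma adjusted p = 0.816). Psmb7, the trypsin-like subunit, was read at 579, 686 and 972, then 769, 533 and 958, then 696, 685 and 1195, and then 915, 985 and 1129 in the same order of groups. The first 2 of these groups overlapped almost wholly, with 0.01 ± 0.29 (limma adjusted p = 0.999). Psmb7 overlaps Nek6 on the other strand, and the strand setting of the counting is not given in the sources used here.

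Psmd14 and the non-26S caps complete the genes given in every comparison. Psmd14 counts were 995, 813 and 1203 in untreated libraries, 1518, 994 and 1429 with the fusion protein, 1170, 1125 and 1462 after 20 Gy, and 1529, 1500 and 1706 after both. The fusion protein libraries overlapped the untreated ones, at 0.38 ± 0.21 (limma adjusted p = 0.72), and the combined libraries were above all others but fusion protein library 1. Psme3 was read at 1310, 1715 and 1910, then 1459, 1647 and 1952, then 1285, 1368 and 1878, and then 1590, 1711 and 1639 in the same order. Psme4 gave 1938, 1343 and 2311, then 1885, 1366 and 2118, then 1939, 1788 and 2220, and then 2241, 1737 and 2267. Both overlapped between all 4 groups, and the fusion protein value of Psme3 was 0.04 ± 0.20 (limma adjusted p = 0.999).

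Radiation alone was compared with no treatment for its own effect on day 17. The median of the 42 tested members was 0.09 on the log2 scale, 28 were positive against 53.3% of all genes, and the median of all genes was 0.04. Under another scaling of the libraries (TMM) both medians moved below 0, to -0.03 and -0.08. Limma, edgeR and DESeq2 called 0 members. Limma and edgeR called 0% of all genes in either direction, and DESeq2 called 0.224% higher and 0.0219% lower. Of the 42 tested members 1 had an unadjusted p under 0.05, against 1231 of 18274 genes (6.74%). In 3 members the groups did not overlap, the alpha subunits Psma1, Psma6 and Psma7, 7.14% of those tested against 6.73% of all genes. After Psma8 (0.79 ± 0.75), Psma7 had the largest value. It was read at 1637, 1328 and 1962 in untreated libraries, 2774, 1854 and 2390 with the fusion protein, 2044, 2092 and 2865 after 20 Gy, and 3069, 2148 and 3020 after both. All 3 irradiated libraries were above the untreated ones, by 0.51 ± 0.23 (limma adjusted p = 0.722).

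No member passed after 20 Gy alone. Psma3 was at 0.38 ± 0.20, Psmd14 at 0.33 ± 0.21 and Psma6 at 0.23 ± 0.16, with limma adjusted p-values of 0.726, 0.758 and 0.784. The lowest were Psmf1 (-0.23 ± 0.22), Psmd11 (-0.17 ± 0.24), Psme3 (-0.13 ± 0.20) and Psmd9 (-0.18 ± 0.31), none of which passed. Psmb5, Psmb6, Psmb7 and Psme4 gave 0.11 ± 0.21, 0.21 ± 0.28, 0.19 ± 0.29 and 0.12 ± 0.23. The irradiated libraries were not alike: the median log2 level of the tested members was 9.60 and 9.68 in libraries 1 and 2 and 10.27 in library 3. Without 20 Gy library 3 the median fold change was -0.10, and without 20 Gy library 1 it was 0.22. The markers of other cell types also stood apart in these libraries: the summed normalized count of 5 erythroid genes was 2011.2 to 2896.9 against 6.2 to 784.8 in untreated libraries (median log2 fold change 4.84), and that of 5 neutrophil genes 2760.2 to 4656.8 against 114.8 to 1575.6 (3.41). None of these 10 genes passed in limma, all 10 were without overlap, and their part in the member values was not tested.

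The combined treatment was compared with no treatment for the joint effect. Of the 42 tested members 39 were positive, with a median of 0.41, against 51.3% of all genes and a median of 0.02. Limma called 0 members (1.21% of all genes were called higher and 0.192% lower), and edgeR and DESeq2 also called 0. Of all genes edgeR called 0.919% higher and 0.175% lower, and DESeq2 3.02% and 1.12%. An unadjusted p under 0.05 was reached by 13 of the 42 tested members, against 2276 of 18274 genes (12.5%) in either direction. In 17 members, 40.5% of those tested, every combined library was above every untreated one, against 10.3% of all genes. These were 6 alpha subunits (Psma1, Psma2, Psma4, Psma5, Psma6, Psma7), 2 beta subunits (Psmb4, Psmb6), the ATPases Psmc1, Psmc5 and Psmc6, the ubiquitin receptor Psmd4, the lid subunits Psmd7, Psmd12, Psmd13 and Psmd14, and the chaperone Psmd10.

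With the library number as a block, 9 members passed in this comparison, all higher, which was 21.4% of the tested members against 5.24% of all genes called higher in that fit. They were Psma7 (0.74, blocked limma adjusted p = 0.0107), Psmd14 (0.67, 0.0151), Psmb2 (0.68, 0.0263), Psma1 (0.61, 0.0289), Psmb6 (0.62, 0.0303), Psma4 (0.66, 0.034), Psma5 (0.64, 0.039), Psmd8 (0.56, 0.0435) and Psmc6 (0.53, 0.044). Without the block the smallest limma adjusted p was 0.182, that of Psma7 at 0.74 ± 0.23, followed by Psmd14 at 0.67 ± 0.21 (0.185), Psma6 at 0.49 ± 0.16 (0.22) and Psma1 at 0.61 ± 0.22 (0.256). Psma1, an alpha subunit, was read at 822, 632 and 877 in untreated and 1247, 1000 and 1304 in combined libraries, which did not overlap. Psma4 was read at 1843, 1887 and 2982 against 3568, 3173 and 3593, again without overlap. Psmb2, a beta subunit without a proteolytic site, was read at 424, 427 and 792 against 835, 673 and 1057; here untreated library 3 lay above combined library 2, while each combined library was above the untreated library of its number.

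The 5 neutrophil genes summed to 1693.3 to 5263.5 in the combined libraries, with a median log2 fold change of 3.91 against untreated, and all 5 passed with the block but not without it; erythroid genes summed to 91.2 to 396.4. Their part in the member values was not tested.

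The other genes given in every comparison did not pass. Psmb5 gave 0.33 ± 0.21, Psmb7 0.47 ± 0.29, Psme4 0.18 ± 0.23 and Psme3 0.02 ± 0.20, with limma adjusted p-values of 0.589, 0.572, 0.826 and 0.985. The only negative members were the base chaperones Psmd9 (-0.20 ± 0.31) and Psmd5 (-0.06 ± 0.23) and the inhibitor Psmf1 (-0.01 ± 0.22). Psmd9 counts were 230, 221 and 429 in untreated libraries and 209, 260 and 267 in combined ones, so that untreated library 3 alone was high. Class medians were 0.55 for the alpha ring, 0.44 for the beta ring, 0.49 for the ATPases, 0.37 for the other base subunits, 0.39 for the lid, 0.32 for the core chaperones, -0.06 for the base chaperones and 0.02 for the other caps and the inhibitor.

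The combined treatment was then set against each single treatment. Against 20 Gy, which asks what the fusion protein added to radiation, 38 of 42 tested members were positive (48.4% of all genes) with a median of 0.32 (-0.02 for all genes). No member was called by limma, edgeR or DESeq2. Of all genes limma called 0.843% higher and 0.186% lower, edgeR 0.711% and 0.12%, and DESeq2 1.83% and 1.18%. An unadjusted p under 0.05 was reached by 4 of the 42 tested members, against 1643 of 18274 genes (8.99%). Psma4, Psmd4, Psmd10 and Psmd14 did not overlap, 9.52% of the tested members against 8.36% of all genes. The smallest p-values were those of Psma4 (0.57 ± 0.23), Psmd4 (0.43 ± 0.19), Psmd7 (0.50 ± 0.22) and Psmc2 (0.57 ± 0.26), with limma adjusted p-values of 0.483, 0.529, 0.53 and 0.542. The members not above 0 were Psma8 (-0.52 ± 0.75), Psmd9 (-0.02 ± 0.31) and Psmg1 (-0.01 ± 0.26), and Psmg2 was at 0.00. Psmb5, Psmb6, Psmb7, Psmd14, Psme3 and Psme4 gave 0.22 ± 0.21, 0.41 ± 0.28, 0.28 ± 0.29, 0.34 ± 0.21, 0.14 ± 0.20 and 0.07 ± 0.23.

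The median against 20 Gy changed with the irradiated libraries that entered it. The summed normalized count of the members was 36576 and 38909 in 20 Gy libraries 1 and 2 and 56695 in library 3, while the combined libraries gave 53716, 49448 and 58137. Without 20 Gy library 3 the median difference was 0.52, and without library 1 it was 0.19. When the 4 libraries with most receptor genes read were left out, 20 Gy library 3 was compared with combined library 2 alone and the median was -0.19. Library 3 had the highest melanoma and mitochondrial values given above and a mean type I interferon level of 10.34, against 8.74 and 8.90 in libraries 1 and 2. Erythroid genes were lower in every combined library than in every 20 Gy library, for 5 of 5 genes (median -3.60, none passing in limma), against 9.55% of all genes. The part of each of these in the member values was not tested.

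Against the fusion protein alone, which asks what radiation added, 30 of 42 tested members were positive (53.7% of all genes), with a median of 0.07 against 0.03. The sign of this median changed with the library left out: it was -0.01 without fusion protein library 2, and 0.19 without fusion protein library 3. Limma, edgeR and DESeq2 each called 0 members and 0% of all genes, and 0 members had an unadjusted p under 0.05 against 2.92% of all genes. Psma4 and Psmc6 did not overlap, 4.76% of the tested members against 4.48% of all genes. The smallest p-values on the higher side were those of Psmc6 (0.38 ± 0.22), Psmb7 (0.46 ± 0.29), Psmd14 (0.29 ± 0.21) and Psma1 (0.29 ± 0.22). Without fusion protein library 2 these were 0.21, 0.23, 0.10 and 0.08. On the lower side they were those of Psmg1 (-0.39 ± 0.26), Psmf1 (-0.20 ± 0.22), Psmb4 (-0.16 ± 0.22) and Psmd9 (-0.20 ± 0.31). All had a limma adjusted p of 1, as did Psmb5 (-0.04 ± 0.21), Psmb6 (0.18 ± 0.28), Psme3 (-0.02 ± 0.20) and Psme4 (0.23 ± 0.23). The 95% interval of a member reached about 0.51 to either side of its value, so changes of that size were not detectable here.

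Averaging over both radiation states used all 12 libraries for each treatment. For the fusion protein, 40 of 42 tested members were positive (47.8% of all genes) with a median of 0.33, and Psma8 (-0.64 ± 0.53) and Psmd9 (-0.01 ± 0.22) were the negative ones. Limma and edgeR called 0 members, against 2.07% of all genes called higher and 1.23% lower by limma, and 1.99% and 1.23% by edgeR. Of the 42 tested members 14 had an unadjusted p under 0.05, against 2653 of 18274 genes (14.5%) in either direction. With the library number as a block 15 members were called higher, 35.7% of those tested against 6.15% of all genes: Psma4, Psma5, Psma7, Psmb2, Psmb3, Psmb4, Psmb6, Psmc1, Psmc2, Psmc3, Psmc5, Psmd4, Psmd7, Psmd11 and Psmd14, at 0.36 to 0.48. The numbers pair the libraries without radiation, but for combined against 20 Gy same-numbered libraries did not all vary together. The block with receptor gene level as a covariate called 4 members, where 5.13% of all genes were called higher. DESeq2 called 2 members higher, Psmd10 (adjusted p = 0.0315) and Psma6 (0.0485), 4.76% of those tested against 4.05% of all genes. The smallest limma p-values were those of Psmd10 (0.46 ± 0.15, adjusted p = 0.145), Psmb4 (0.48 ± 0.15, 0.145), Psmd4 (0.41 ± 0.13, 0.149) and Psma6 (0.34 ± 0.11, 0.158). Psmd4 and Psmd10 were the members without overlap in both radiation states, 4.76% against 2.89% of all genes. Psmd4, the ubiquitin receptor of the base, was read at 1716, 2313 and 2329 in untreated libraries, 2607, 2892 and 2748 with the fusion protein, 1669, 1989 and 2635 after 20 Gy, and 2647, 2816 and 2879 after both.

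The averaged fusion protein effect was also taken without the 4 libraries with most receptor genes read. This left 1 library after 20 Gy and 1 after both treatments, and the median was 0.09. The move from 0.33 was smaller than 0.25, the pooled SD between libraries of a group in the members' median level. The 20 Gy library that stayed had the highest summed member count of its group, so this setting cannot separate receptor gene reads from that library. The part of receptor gene reads in the lower median was not tested. With the fusion protein alone against untreated, where none of the 4 left-out libraries enters the group means, the median was 0.35. Among the genes given in every comparison the averaged effect was 0.29 ± 0.15 for Psmb5, 0.43 ± 0.20 for Psmb6, 0.14 ± 0.20 for Psmb7, 0.36 ± 0.15 for Psmd14, 0.09 ± 0.14 for Psme3 and 0.01 ± 0.16 for Psme4, with limma adjusted p-values of 0.412, 0.358, 0.846, 0.274, 0.86 and 0.993. Core members had a median of 0.37, regulatory particle members 0.36, and chaperones, other caps and the inhibitor together 0.18.

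**Figure D2:**
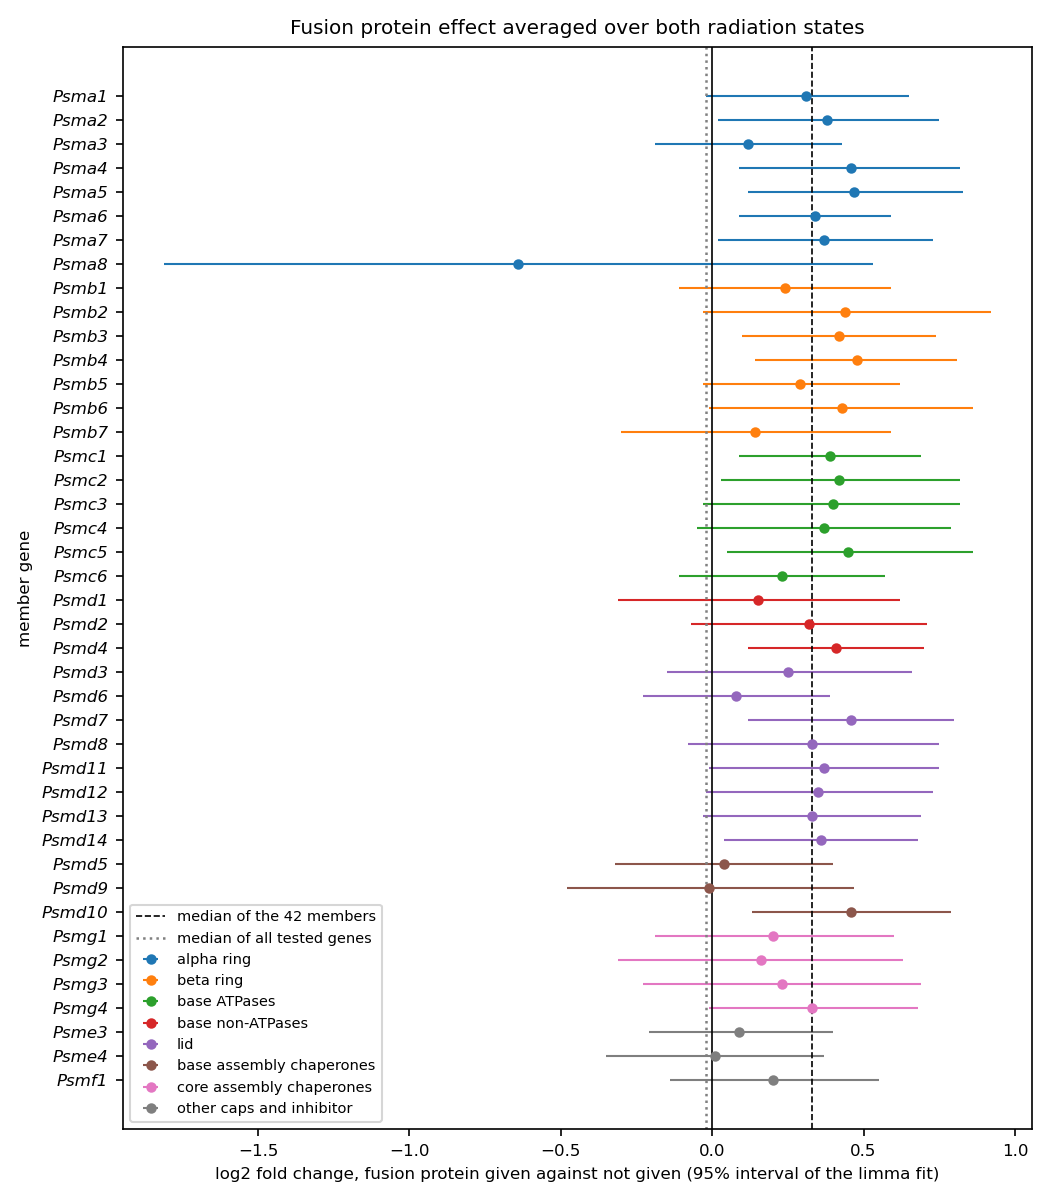
The log2 fold change for the fusion protein, averaged over both radiation states, is plotted for each of the 42 tested members with the 95% interval of the limma fit (8 residual degrees of freedom), coloured by role. The dashed line is the members' median of 0.33 and the dotted line that of all tested genes, -0.02. Of the members, 40 lie right of 0, none passed the adjusted test without the library number as a block, and 15 passed with it.

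For 20 Gy averaged over both fusion protein states the median was 0.08 (0.04 for all genes, and -0.03 for the members without 20 Gy library 3), 29 of 42 tested members were positive against 54.7%, and limma called 0 members and 0% of all genes. EdgeR and DESeq2 called 0 members as well, where edgeR called 0% of all genes and DESeq2 0.421% higher and 0.137% lower. Of the 42 tested members 1 had an unadjusted p under 0.05, against 1915 of 18274 genes (10.5%). The smallest p-values were those of Psma7 (0.37 ± 0.16), Psmd14 (0.31 ± 0.15), Psma3 (0.29 ± 0.14) and Psma1 (0.30 ± 0.15), with limma adjusted p-values of 0.465, 0.494, 0.5 and 0.513, and on the lower side of Psmf1 (-0.22 ± 0.16), Psmg1 (-0.18 ± 0.18), Psmd9 (-0.19 ± 0.22) and Psmd5 (-0.10 ± 0.16). Psmb5, Psmb6, Psmb7, Psme3 and Psme4 gave 0.04 ± 0.15, 0.20 ± 0.20, 0.32 ± 0.20, -0.08 ± 0.14 and 0.18 ± 0.16. The interaction asks whether the fusion protein acted otherwise after radiation. No member passed it by limma, edgeR or DESeq2, and 0 had an unadjusted p under 0.05 against 1.03% of all genes. Limma and edgeR called 0% of all genes, and DESeq2 called 0% higher and 0.00547% lower. In this contrast 19 of 42 members were positive (50% of all genes), and the median was -0.01. The values of smallest p were those of Psmg3 (0.36 ± 0.42), Psmc2 (0.29 ± 0.36), Psmd11 (0.25 ± 0.34) and Psmb7 (0.27 ± 0.41) above 0, and of Psmg1 (-0.41 ± 0.36), Psma7 (-0.28 ± 0.32), Psmb4 (-0.25 ± 0.31) and Psmg2 (-0.32 ± 0.43) below it. Psmb5, Psmb6, Psmd14, Psme3 and Psme4 gave -0.15 ± 0.30, -0.03 ± 0.40, -0.04 ± 0.29, 0.10 ± 0.28 and 0.11 ± 0.33. The 95% interval of an interaction reached about 0.72 to either side.

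The interferon-induced counterparts had larger values than most members. With the fusion protein alone Psmb9 gave 0.87 ± 0.22, Psmb8 0.66 ± 0.23, Psmb10 0.71 ± 0.30 and the activator subunits Psme1 and Psme2 0.51 ± 0.23 and 0.72 ± 0.24. All 5 had every fusion protein library above every untreated one, against 5.94% of all genes. None passed without the block (limma adjusted p of 0.124 to 0.596). With it Psmb9 (blocked limma adjusted p = 0.0123) and Psmb8 (0.0431) did, where 2.28% of all genes were called higher. Averaged over both radiation states Psmb9 rose by 0.73 ± 0.15 (limma adjusted p = 0.0241), while Psme2, Psmb10, Psmb8 and Psme1 were at 0.67, 0.82, 0.58 and 0.59 with adjusted p-values of 0.0562, 0.0638, 0.0844 and 0.0857. With the library number as a block all 5 passed (blocked limma adjusted p of 0.00164 to 0.0107), against 6.15% of all genes called higher. Psme2 is nearly identical to the copy Psme2b, so its counts are uncertain. Type I interferon genes rose with it: 9 of 10 listed genes passed with the fusion protein alone, with a median of 3.32, among them Oas3 (3.34 ± 0.28), Ifit3 (3.83 ± 0.37) and Usp18 (3.30 ± 0.32).

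The balance between each interferon-induced proteolytic subunit and the constitutive subunit whose place it takes was taken within each library, as the log2 ratio of their normalized counts. The ratio is not corrected for length, so only its differences between libraries are read. For Psmb10 to Psmb7 it was 0.07, 0.21 and -0.07 in untreated libraries, 0.65, 0.99 and 0.67 with the fusion protein, -0.39, -0.10 and -0.04 after 20 Gy, and 0.68, 0.15 and 0.59 after both. Within each radiation state the libraries with the fusion protein were all above those without it. The mean was 0.62 ± 0.27 (SD, n = 6) with and -0.05 ± 0.20 without, a difference of 0.68 (exact two-sided permutation test within radiation states, p = 0.005, the smallest it can give, and 0.03 adjusted over the 6 ratio tests). For Psmb8 to Psmb5 the values were 3.84, 3.94 and 3.91, then 4.18, 4.27 and 4.11, then 3.74, 3.79 and 4.14, and then 4.07, 4.33 and 4.13. Here 20 Gy library 3 overlapped the combined libraries, and the difference was 0.29 (4.18 ± 0.10 against 3.89 ± 0.14, exact permutation p = 0.015, adjusted 0.045). This call did not hold in all settings: with the library number as a block the adjusted p was 0.0568, and it was 0.06 to 0.09 when untreated library 1, 2 or 3, fusion protein library 2, 20 Gy library 1 or 2, or combined library 2 was left out. For Psmb10 to Psmb7 the adjusted p was 0.06 without 20 Gy library 1 or 2. Psmb7 overlaps Nek6 on the other strand, and whether shared reads enter this ratio was not tested.

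For Psmb9 to Psmb6 the values were 0.44, -0.26 and -0.29, then 0.62, 0.71 and -0.14, then 0.30, 0.25 and -0.27, and then 0.54, 0.10 and 0.19, and the libraries with and without the fusion protein overlapped. The difference was 0.31 (exact permutation p = 0.145, adjusted 0.217). With the library number as a block its limma adjusted p was 0.0568, the same as for Psmb8 to Psmb5. For Psmb10 to Psmb7 the blocked limma adjusted p was 0.000256. With 20 Gy the differences were -0.01 for Psmb8 to Psmb5 and 0.01 for Psmb9 to Psmb6 (exact permutation adjusted p = 0.965 for both). For Psmb10 to Psmb7 the difference with 20 Gy was -0.27 (exact permutation p = 0.035, adjusted 0.07), which did not pass.

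**Figure D3:**
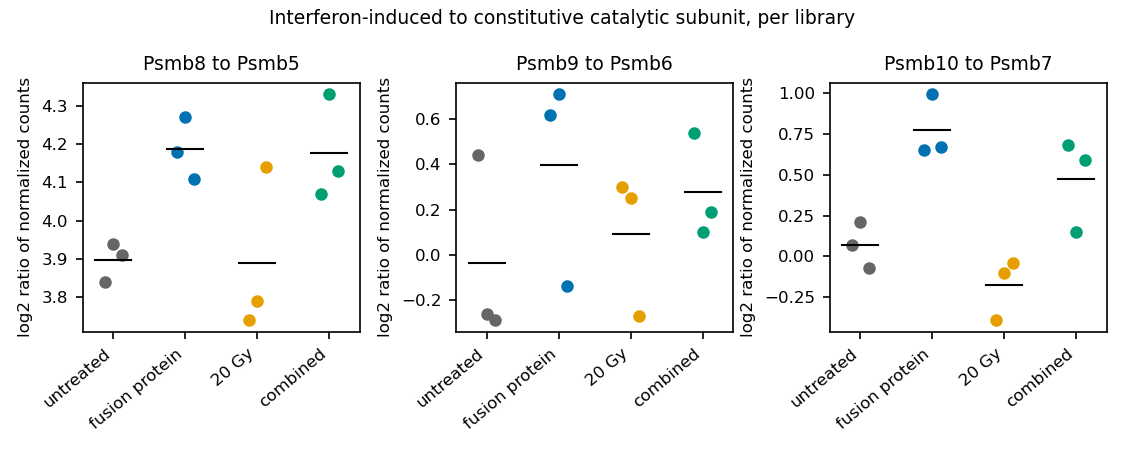
Each point is 1 library and each bar the mean of 3, and the vertical axes give the log2 ratio of an interferon-induced proteolytic subunit to its constitutive counterpart. In the Psmb10 to Psmb7 panel the fusion protein libraries (0.65 to 0.99) lie above all untreated ones (-0.07 to 0.21).

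Other genes tied to the proteasome had medians nearer to 0 than the members. With the fusion protein alone 0 of 17 tested proteasome partners (among them the maturation factor Pomp, the deubiquitinases Uchl5 and Usp14 and ubiquitin shuttles) passed, with a median of 0.05, and 0 of 10 genes of ubiquitin supply and substrate extraction, with a median of 0.16. Of the partners 11 were positive and 6 negative. They include Adrm1 and Sem1, regulatory particle subunits without a Psm symbol. Their untreated means were 947 and 1738, against 1325 and 2091 with the fusion protein, with overlapping libraries. In the averaged effect with the block, 2 partners and 2 of the ubiquitin genes were called higher, against 6.15% of all genes. Of 7 genes known to control proteasome gene expression 0 passed, with a median of 0.13, and among them Nfe2l1, the transcription factor that induces proteasome genes when degradation fails, was read at 1532, 2081 and 2482 in untreated and 1657, 2431 and 2586 in fusion protein libraries, which overlapped. Nfyb, a subunit of the NF-Y factor that binds the CCAAT box, is named after its values were seen. It was read at 732, 743 and 587 in untreated libraries, 1080, 984 and 812 with the fusion protein, 610, 662 and 573 after 20 Gy, and 942, 955 and 766 after both, without overlap in either radiation state. Averaged, this was 0.50 ± 0.12 (limma adjusted p = 0.0553, 0.00391 with the block, and 0.00317 by DESeq2). The other NF-Y subunits, Nfya and Nfyc, overlapped in both radiation states. Nfya means were 1205 untreated, 1377 with the fusion protein, 1494 after 20 Gy and 1601 after both. Those of Nfyc were 1036, 1021, 803 and 835 in the same order. A link between NF-Y and the member levels was not tested. For 2 other large complexes, the COP9 signalosome (9 genes, related to the lid) and the CCT chaperonin (8 genes), 0 passed and the medians were 0.04 and 0.05. Cell cycle genes had positive values as well: all 20 were positive with the fusion protein alone, with a median of 0.96, and 1 of them, the centromere protein Cenpe, rose by 1.35 ± 0.26 (limma adjusted p = 0.0444). Averaged over both radiation states the medians were 0.66 for cell cycle genes, of which Cenpe (0.99) and the mitotic kinase Plk1 (0.82) rose without the block and 16 of 20 genes with it, 0.03 for CCT and 0.05 for COP9. The mean cell cycle level was 8.68 to 9.54 in the 6 libraries without the fusion protein and 9.36 to 10.30 in the 6 with it. Whether the share of dividing cells bears on the member levels was not tested.

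**Figure D4:**
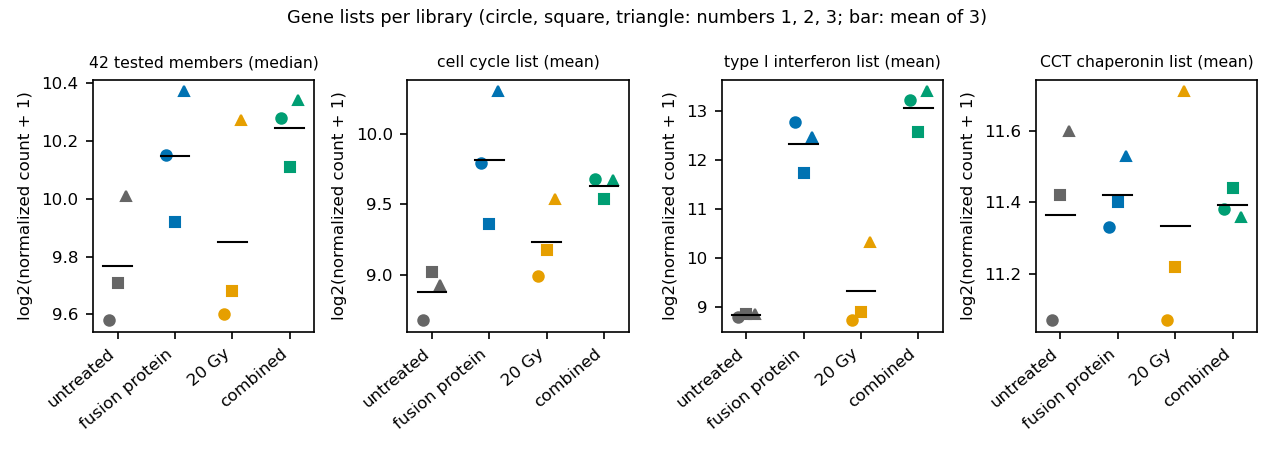
Each point is 1 library, with its number shown by the shape, and each bar is the mean of 3, on the log2(normalized count + 1) scale. The members' median level is 9.58 to 10.01 in untreated libraries and 10.11 to 10.34 in combined ones, and 20 Gy library 3 (10.27) stands with the fusion protein libraries.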

How the data were processed

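Total RNA from 12 libraries in 4 groups of 3 was sequenced after construction with a stranded low-input kit, per the labels' protocols. Per the submitters' processing notes, the authors used FastQC, Trimmomatic, STAR, featureCounts and DESeq2 with the build mm10. Versions and the strand setting are not stated there. The deposited table holds signal values: counts that the authors normalized with DESeq2. Every value was a whole multiple of what 1 read is worth in its library (100% of 346872 values within 0.001), so reads were recovered, and edgeR and DESeq2 were run on them as alternatives.

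The filter kept 18274 genes that reached a normalized count of 10 in 3 or more libraries. The main analysis was limma 3.58.1 in R 4.3.3 on log2(normalized count + 1), with all 12 libraries in 4 groups and a variance trend (8 residual and 3.313 prior degrees of freedom). P-values were two-sided and adjusted by Benjamini-Hochberg over these genes (threshold 0.05). Fold changes on this scale understate those of low genes. Values after ± are the SE for a log2 fold change and the SD for a mean. The fit was tested on simulated data. Alternatives were edgeR 4.0.16, DESeq2 1.42.0, other scalings, filters and pseudocounts, the library number as a block, receptor gene level as a covariate, and left-out libraries. Ratio tests permuted libraries exactly (400 arrangements), within radiation states for the fusion protein and within fusion protein states for 20 Gy.

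Symbols and coordinates came from GENCODE vM21 (55141 of 55401 identifiers matched). Of the members, 18 overlap another gene, 9 of them a protein-coding one (Psma2, Psma4, Psmb7, Psmc3, Psmd1, Psmd5, Psmd9, Psmd13, Psmg3), and reads there may be shared. Protein sequences and the listed partner Paaf1 were not analysed here. What the library number marks is not said in the labels. Same-numbered libraries had residual correlations of at least 0.473 (fusion protein), 0.156 (20 Gy) and 0.334 (combined) against untreated and of at least 0.41 for combined against fusion protein. For combined against 20 Gy the lowest was 0.00951. The main limma, edgeR and DESeq2 fits left the library number out, so their p-values do not take it into account. It entered only as a block in an alternative fit, which was run for every comparison. The members and all gene lists were chosen with earlier results of these data known. Psmb5, Psmb6, Psmb7, Psmd14, Psme3 and Psme4 were named in every comparison, with up to 12 members passing in each direction or, where fewer than 4 passed, the 4 of smallest p in each direction, up to 6 passing genes of each other list, and members failing the filter.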

Additional observations from a re-analysis of the deposited data

Results flagged for a closer look

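The 4 rows of the table that name pseudogenes of the members were outside all comparisons. Their summed normalized count was 1.5, 2.5 and 0 in the untreated libraries, but 10.56 (12 reads) in 20 Gy library 1 and 5.36 (5 reads) in 20 Gy library 2, above the untreated level, and 0 in the other 7 libraries. Those were also the libraries with most receptor genes read (78.96% and 59.01%). The cause was not tested.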

How the results depend on the processing

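The count of members called was 0 in the main fit of every comparison. Of 205 recalculations of it 198 also gave 0, and 7 gave more. With the library number as a block the counts were 9 for combined against untreated and 15 for the averaged fusion protein effect (35.7% of tested members against 6.15% of all genes called higher); the block changed no other member count. DESeq2 gave 2 in the latter, and leaving out single libraries gave 0 to 3, with 3 when 20 Gy library 3 was left out. The block with receptor gene level as a covariate, chosen after seeing the data, gave 1 for fusion protein against untreated, 8 for combined against untreated and 4 for the averaged effect, where 2.31%, 4.65% and 5.13% of all genes were called higher; 1 of 42 is near that share. Leaving out the 4 libraries with most receptor genes read, also chosen after seeing the data, moved the median to 0.46 for 20 Gy against untreated, -0.19 for combined against 20 Gy and -0.49 for the interaction. The other 202 of 205 medians moved by no more than 0.25, the pooled SD between libraries of a group in the members' median level. TMM scaling moved the median of all genes to 0.13 for combined against 20 Gy and 0.12 for the interaction; members minus all genes stayed at 0.34 and -0.01.

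The ratio of Psmb8 to Psmb5 with the fusion protein was 0.29 under the replicate block and no longer passed; without the libraries numbered 3 it was 0.38, and that of Psmb10 to Psmb7 0.67, where no p below 0.0556 is possible. Left-out libraries gave 0.25 to 0.35 and 0.62 to 0.76. With 20 Gy the ratio of Psmb9 to Psmb6 turned to -0.08 without the libraries numbered 3 and ranged from -0.13 to 0.13 without single libraries, and that of Psmb8 to Psmb5 from -0.07 to 0.03; that of Psmb10 to Psmb7 ranged from -0.32 to -0.19 and passed without combined library 1 (exact permutation adjusted p = 0.03).

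Changes of sign were looked for in 70 named member values. These were up to 4 of smallest p in each direction in every comparison. Psmb5, Psmb6, Psmb7, Psmd14, Psme3 and Psme4 were added only for the averaged effects. Their values in the other comparisons were not checked unless among those of smallest p. None of the 70 passed in the limma fit, and 25 changed sign in at least 1 setting. Without the libraries numbered 3 these were Psmd9 0.05, Psmf1 0.02 (combined against untreated), Psmd9 0.11 (combined against 20 Gy), Psmd9 0.11 (fusion protein averaged), Psmb4 0.02 (interaction). Without the 4 libraries with most receptor genes read these were Psmd11 0.17, Psme3 0.21, Psmd9 0.21 (20 Gy against untreated), Psmf1 0.22 (combined against untreated), Psmd7 -0.13, Psmc2 -0.04, Psma8 0.06 (combined against 20 Gy), Psmf1 0.03 (combined against fusion protein), Psmb7 -0.14, Psme3 -0.05, Psme4 -0.20 (fusion protein averaged), Psme3 0.12, Psmd9 0.05 (20 Gy averaged), Psmc2 -0.31, Psmd11 -0.03, Psmb7 -0.29 (interaction). With TMM scaling these were Psmf1 0.02 (combined against untreated), Psmd9 0.14, Psmg1 0.15 (combined against 20 Gy), Psmd9 0.09 (fusion protein averaged), Psmb5 -0.02 (20 Gy averaged). With scaling by the total in genes these were Psme4 -0.05 (fusion protein averaged). With receptor gene level as a covariate these were Psme3 0.09 (20 Gy against untreated), Psmf1 0.08 (combined against untreated), Psma8 0.21 (combined against 20 Gy), Psme3 0.08 (20 Gy averaged). With that covariate and the block these were Psmg1 0.07 (combined against 20 Gy). Left-out single libraries changed the sign of these, with ranges of Psme4 -0.27 to 0.14 (fusion protein against untreated), Psmd11 -0.35 to 0.03, Psmd9 -0.37 to 0.13 (20 Gy against untreated), Psmd9 -0.36 to 0.11, Psmd5 -0.26 to 0.08, Psmf1 -0.14 to 0.12 (combined against untreated), Psmd9 -0.12 to 0.18, Psmg1 -0.14 to 0.10 (combined against 20 Gy), Psmd9 -0.39 to 0.01 (combined against fusion protein), Psme4 -0.10 to 0.10, Psmd9 -0.11 to 0.15 (fusion protein averaged), Psmb5 -0.04 to 0.10 (20 Gy averaged), Psmb4 -0.38 to 0.02 (interaction).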
